A study of Cucumis sativus with 8 samples.

Results

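Csa2G011420, Csa3G143580 and Csa7G378530, which the study's tables annotate as AUX/IAA transcriptional regulators, and Csa1G071800, annotated there as pinoid-binding protein 1, are the 4 genes described here, of 17783 in the deposited table. They were chosen by identifier and annotation. The 8 RNA-seq libraries came from midveins of leaves and from fruits collected 4 d ahead of anthesis, 2 for each tissue and genotype. All plants came from the cucumber inbred line R1461. WT plants carried no transgene, and R5 plants carried an RNA interference (RNAi) construct against *CsIVP* (Csa6G483450), a basic helix-loop-helix transcription factor that the sample labels call CsIND. R5 is 1 transgenic line, so what the construct did cannot be told apart from anything else particular to that line.

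AUX/IAA proteins are short-lived repressors of auxin-responsive transcription. They bind auxin response factors and are degraded when auxin joins them to a receptor F-box protein, and in *Arabidopsis* many of their genes are themselves induced by auxin. PINOID is an *Arabidopsis* protein kinase that acts on PIN auxin efflux carriers, and pinoid-binding protein 1 is a calcium-binding protein that interacts with it. Auxin flow through the forming veins is known to pattern the vasculature.

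All 3 AUX/IAA genes have *Arabidopsis* IAA4 as their best match in the study's tables. The study named 1 cucumber gene *CsAUX4* and used an oligonucleotide of its promoter in binding assays with CsIVP. No source used here ties that name to 1 of the 3 identifiers, so the sequences below belong to *CsAUX4* and are not assigned to a gene of the table. The probe is shown because it carries the E-box, the CANNTG element bound by basic helix-loop-helix factors, here in capitals at bases 16 to 21 of 35. The primers are shown because they define the transcript assayed under that name.
CsAUX4 binding probe: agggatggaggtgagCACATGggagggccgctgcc
CsAUX4 qRT-PCR forward primer: tctcccatcaaccgaacc
CsAUX4 qRT-PCR reverse primer: ggaggggtattttcttggct
The probe holds 1 CANNTG match, which reads as CANNTG on both strands.

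Values are RPM, the reads of a gene scaled to 1 common library total, and are not divided by gene length, so levels are compared here between libraries and not between genes. Between 18088985 and 22979345 reads per library fell on genes. A gene with a count of 0 may still hold up to 3 reads, or 0.131 to 0.166 RPM, in counting error alone. In 2650 genes the 2 R5 vein libraries differed by over 2-fold from each other, while this was so in 80 genes in WT vein, 283 in WT fruit and 419 in R5 fruit. The summed level of 10 markers of green leaf tissue was 28840 and 26310 RPM in WT vein, 2101 and 15260 RPM in R5 vein, and 2926 to 4085 RPM in the fruit libraries. The summed level of 4 xylem markers was 102 to 110 RPM in WT vein, 48.5 and 64.1 RPM in R5 vein and 24.7 to 29.3 RPM in fruit, and that of 5 phloem markers was 122 to 172 RPM across the 8 libraries, with no marker at 0 in any group. Within that sum, 4 of the 5 phloem markers were called higher and 1 lower in R5 vein (median log2 fold change 1.45), and 0 of the 4 xylem and 1 of the 10 green tissue markers were called, lower, with every xylem and green tissue estimate below 0. The markers came from the same tables of genes changed in vein. The xylem markers were IRX6, a laccase and cellulose synthases. The study lists another laccase, ACL5 and CCR1 as higher in R5 vein, so the direction of the xylem markers depends on which genes were picked. *CsIVP* itself had 0 reads in all 4 vein libraries and differed by 0.10 on the log2 scale (standard error 0.21, 95% interval -0.41 to 0.60) between R5 and WT fruit. Its level therefore does not check the genotype labels. The paper reports reduced *CsIVP* transcript in R5 by qRT-PCR, and its text and legend name no tissue for that assay. It also reports less CsIVP protein in R5, from immunoblots of leaf tissue. No fall of the transcript was seen in these fruit libraries, which may not be the tissue assayed. The cause was not tested.

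In vein, the 3 AUX/IAA genes were lower in R5 and the PID-binding gene was higher, and the libraries of the genotypes did not overlap for any of the 4. Csa2G011420 fell from 90.9 and 91.4 RPM in WT vein to 14.5 and 26.5 RPM in R5 vein. Csa3G143580 fell from 43.1 and 45.9 RPM to 9.87 and 21.6 RPM. Csa7G378530 fell from 38.5 and 43.3 RPM to 18.3 and 22.0 RPM. For each of these genes the lowest R5 library was replicate 1, which was also the library with the least green tissue marker RNA, and the part of that tissue, or of the xylem and phloem markers above, in the result was not tested. Fewer cells of a type and less RNA per cell cannot be told apart in such bulk libraries.

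Csa1G071800 moved the other way. It had 0 reads in both WT vein libraries, and 229 and 148 reads (12.4 and 7.80 RPM) in R5 vein. With WT vein taken at the limit of 3 reads per library, the mean of R5 vein was 65.1 times that limit. This allows for counting error at 0 reads in WT only, and not for the spread between the R5 libraries or between plants.

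**Figure D1:**
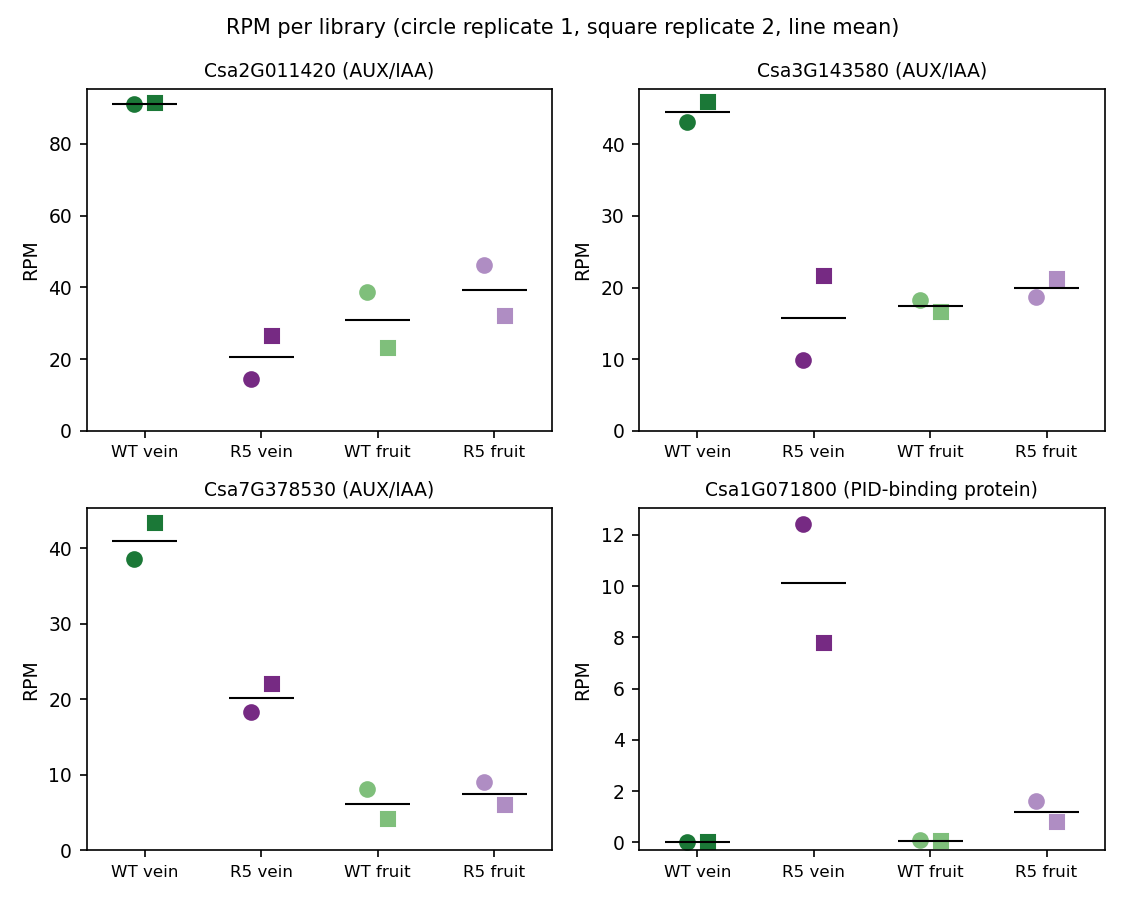
RPM (y axis, linear) of the 4 genes in each of the 8 libraries, with WT vein, R5 vein, WT fruit and R5 fruit on the x axis. Circles and squares are replicates 1 and 2 and lines are means. The WT vein libraries are the highest for the 3 AUX/IAA genes and at 0 for Csa1G071800, whose R5 vein libraries are the highest.

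A gene was called where limma's adjusted p (Benjamini-Hochberg over 17778 genes) was below 0.05 and the change reached 2-fold. All 4 genes were called in vein, 3 lower and 1 higher. Over all genes tested, 19.2% were called in vein and 5.14% were called lower, and the libraries did not overlap in 22.1% of genes that were lower and 45.1% that were higher in R5. The genes were taken from the study's table of genes changed in these vein libraries, so nothing is read from their vein calls. The log2 fold change on the log2(RPM + 0.5) scale was -2.19 (standard error 0.35, 95% interval -3.02 to -1.35) for Csa2G011420, or 4.55-fold lower. It was -1.57 (standard error 0.33, interval -2.35 to -0.79) for Csa3G143580, or 2.97-fold lower. It was -1.01 (standard error 0.32, interval -1.78 to -0.23) for Csa7G378530, or 2.01-fold lower, which is just past the 2-fold limit. For Csa1G071800 it was 4.37 (standard error 0.34, interval 3.57 to 5.17), where the added 0.5 stands in for a WT level of 0.

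The size of these changes varied with the R5 vein library used. Without R5 vein replicate 1 the log2 fold change was -1.76 for Csa2G011420 and -1.02 for Csa3G143580, and both stayed called. That of Csa7G378530 was then -0.88 with an adjusted p of 0.084 from limma, and 3 of the 4 genes were called. The call of Csa3G143580 was lost without WT vein replicate 1 or 2 (adjusted p = 0.0662 and 0.0686). The call of Csa7G378530 (adjusted p = 0.0496 in the fit of 8 libraries) was lost without WT vein replicate 1 or 2 (adjusted p = 0.153 and 0.196) and without R5 fruit replicate 1 or 2 (adjusted p = 0.0633 and 0.0628). The genome as a whole also shifted on the RPM scale. The median gene was 0.20 higher in R5 vein, and -0.04 after TMM scaling, where the 3 AUX/IAA genes stood at -2.44, -1.82 and -1.26. The calls over all genes were 2494 higher and 913 lower on the RPM scale, and 1817 and 1486 after TMM scaling.

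In fruit the picture was different, and these libraries played no part in choosing the genes. Csa2G011420 was at 38.7 and 23.2 RPM in WT fruit and at 46.2 and 32.1 RPM in R5 fruit. Csa3G143580 was at 18.2 and 16.5 RPM in WT and at 18.7 and 21.2 RPM in R5. Csa7G378530 was at 8.06 and 4.13 RPM in WT and at 8.97 and 5.98 RPM in R5. The genotypes overlapped for Csa2G011420 and Csa7G378530, whereas both R5 libraries lay just above both WT libraries for Csa3G143580, as they did for 23.2% of all genes tested.

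None of the 3 AUX/IAA genes was called in fruit, where 0.422% of genes were called higher and 0.0506% lower. The log2 fold changes were 0.36 (95% interval -0.48 to 1.20) for Csa2G011420, 0.19 (-0.58 to 0.97) for Csa3G143580 and 0.32 (-0.46 to 1.09) for Csa7G378530, each with an adjusted p of 1 from limma. In each gene the lower end of the fruit interval was a fall of less than 0.6 on the log2 scale. The estimates in vein lie below these lower ends, but the genes were chosen for a change in vein. For Csa7G378530 the vein interval (-1.78 to -0.23) overlaps the fruit interval. The difference between the tissues is tested below. The values for Csa2G011420 and Csa7G378530 rested on WT fruit replicate 2, and were -0.01 and -0.13 without it.

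Csa1G071800 was at the edge of detection in WT fruit, with 2 and 1 reads (0.0910 and 0.0435 RPM). R5 fruit held 30 and 17 reads (1.63 and 0.782 RPM), so both R5 libraries were above both WT libraries, as in 23.2% of all genes tested. The ratio of the summed reads, scaled to library size, was 17.5 with an exact 95% counting interval of 5.65 to 88.1, which covers counting error only and not the spread between plants. In limma the log2 difference was 1.54 (standard error 0.34) on the log2(RPM + 0.5) scale, where the added 0.5 exceeds the WT level, and it was not called (adjusted p = 0.201). It was called by DESeq2 (adjusted p = 0.00319) and by edgeR's exact test (adjusted p = 0.000103), but not by edgeR's quasi-likelihood test. Limma also called it without R5 vein replicate 1 or 2, where the spread between those libraries leaves the fit and fruit calls over all genes rose. The range of the adjusted p over all alternatives was 0.000103 to 0.882.

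The vein and fruit effects of R5 were then compared within the same fit. The difference, vein minus fruit, was -2.54 on the log2 scale (standard error 0.50, adjusted p = 0.0301 by limma) for Csa2G011420 and 2.83 (standard error 0.47, adjusted p = 0.0207) for Csa1G071800, and both were called. It was -1.76 (95% interval -2.87 to -0.66, adjusted p = 0.0554) for Csa3G143580 and -1.32 (-2.41 to -0.23, adjusted p = 0.107) for Csa7G378530, which were not called. Over all genes 11.4% were called for a difference, 3.16% negative and 8.27% positive (562 and 1470 genes, against 1030 and 1033 after TMM scaling). This difference contains the vein libraries that chose the genes. DESeq2 called all 4 genes and edgeR's quasi-likelihood test called 1. With 1 library left out, the log2 difference ranged from -2.965 to -2.121 for Csa2G011420 and from 2.461 to 3.195 for Csa1G071800. Neither call was kept in limma on leaving out any WT or R5 fruit library. Leaving out an R5 vein library takes the spread between the R5 vein libraries out of the fit. Calls over all genes then rose, so nothing is read from the calls of these genes in those fits.

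**Figure D2:**
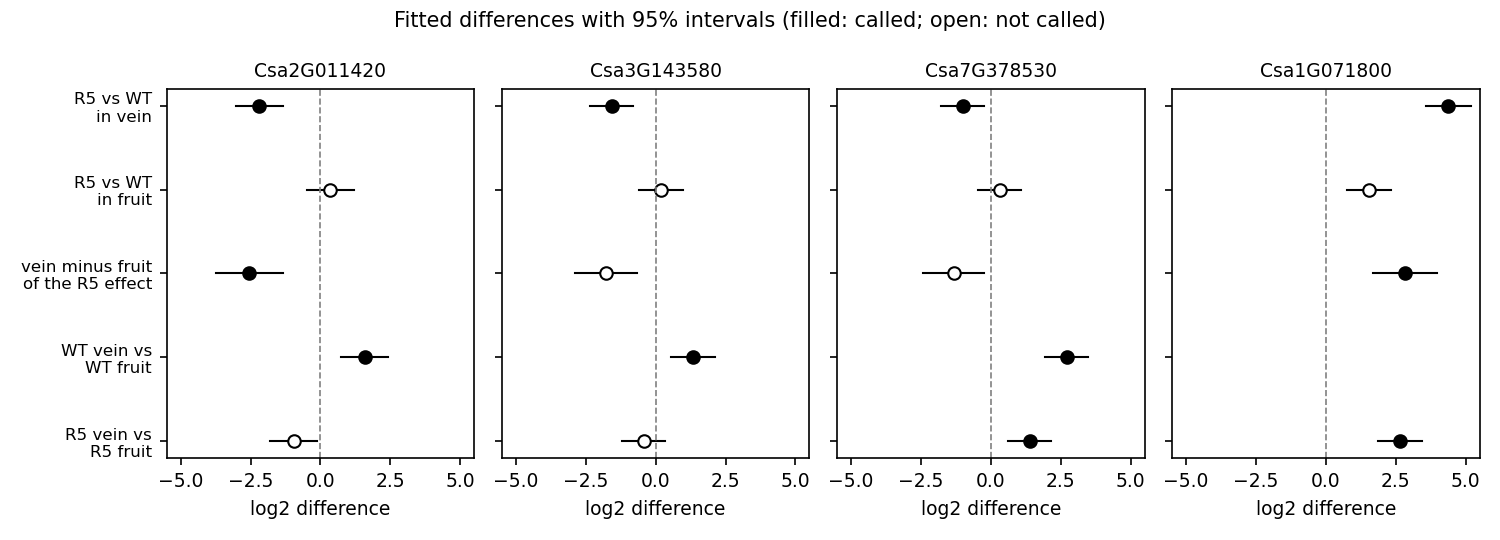
Fitted log2 differences (x axis, points) with 95% intervals (lines) for the 4 genes in the comparisons named on the y axis, from limma on log2(RPM + 0.5). Filled points were called and open points were not. The fruit intervals of the 3 AUX/IAA genes include 0, and the point of Csa1G071800 for WT vein against WT fruit is left out because both groups were within 3 reads of 0.

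The tissues themselves were compared next. The WT vein libraries of this contrast also entered the vein comparison that chose the genes, so genes lower in R5 vein were chosen partly for high WT vein values, and the contrast is not independent of the choice. In WT, all 3 AUX/IAA genes were higher in vein than in fruit, with no overlap between the libraries. How many of all genes lack such overlap was not counted, and 11231 of 17778 had an unadjusted p under 0.05 in limma in this contrast. The log2 difference was 2.72 (standard error 0.32, adjusted p = 0.00107 by limma) for Csa7G378530, or 6.57-fold. It was 1.59 (standard error 0.35, adjusted p = 0.009) for Csa2G011420, or 3.01-fold, and 1.33 (standard error 0.33, adjusted p = 0.0131) for Csa3G143580, or 2.52-fold. All 3 were called, where 7.45% of genes were called higher in vein and 22.7% higher in fruit. The median gene was at -0.51 in this comparison on the RPM scale and at -0.09 after TMM scaling, with 1325 and 4039 calls against 2017 and 2013, and Csa2G011420, Csa3G143580 and Csa7G378530 stood at 2.02, 1.76 and 3.14 after TMM scaling. The call of Csa7G378530 was kept under each alternative. That of Csa2G011420 was lost without WT vein replicate 1 or WT fruit replicate 2 (adjusted p = 0.0527 and 0.057), and that of Csa3G143580 without any one of the 4 WT libraries (adjusted p = 0.0552 to 0.0692). Xylem markers (4 of 4 called higher in WT vein) and green tissue markers (9 of 10) moved with this contrast, and their part in the result was not tested.

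In R5, whose vein libraries also entered the choice of genes, only Csa7G378530 among the AUX/IAA genes was still called higher in vein than in fruit. Its log2 difference was 1.40 (standard error 0.32, adjusted p = 0.0152), and 1.12 with an adjusted p of 0.0956 without R5 fruit replicate 2. The other AUX/IAA genes were at or below the fruit level in R5 vein, with a difference of -0.95 (95% interval -1.79 to -0.12, adjusted p = 0.0697) for Csa2G011420 and -0.43 (-1.21 to 0.35, adjusted p = 0.319) for Csa3G143580. The first was called at -1.38 (adjusted p = 0.007) without R5 vein replicate 2, and the second turned to 0.11 without R5 vein replicate 1. Csa1G071800 was higher in R5 vein than in R5 fruit by 2.65 (standard error 0.34, adjusted p = 0.00149). Its ratio of reads, 377 against 47, was 8.60 with a counting interval of 6.34 to 11.9. In this comparison 8.36% of genes were called higher in vein and 14.1% higher in fruit (1486 and 2512 genes, against 1818 and 2039 after TMM scaling).

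The order of the 4 groups thus took 3 forms. How often groups stand apart in these ways over all genes was not counted. Csa2G011420 and Csa3G143580 were lowest in R5 vein, followed by WT fruit, R5 fruit and WT vein. For Csa2G011420 the lower 3 groups overlapped their neighbours, and WT vein stood apart at 2.33 times the mean of R5 fruit. For Csa3G143580 R5 vein overlapped WT fruit, WT fruit lay just below R5 fruit with no overlap, and WT vein stood at 2.23 times the mean of R5 fruit. Csa7G378530 was lowest in WT fruit and R5 fruit, which overlapped, then R5 vein and then WT vein, each apart from its neighbour. Csa1G071800 rose from WT vein through WT fruit and R5 fruit to R5 vein with no overlap, although WT vein and WT fruit were both within 3 reads of 0.

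Each AUX/IAA gene has a family member next to it in the numbering of the table, with 0 other table genes between them. The identifier gives the chromosome, and positions along it were not used here. On chromosome 3, Csa3G143570 (annotated as IAA14) precedes Csa3G143580. It fell from 209 and 223 RPM in WT vein to 85.0 and 89.8 RPM in R5 vein (log2 fold change -1.30, standard error 0.11, adjusted p = 0.000567). The fruit libraries held 111 and 107 RPM in WT and 107 and 102 RPM in R5, with overlapping libraries and a log2 fold change of -0.06. Its R5 effect differed between the tissues by -1.24 (adjusted p = 0.012), so the neighbours on chromosome 3 were lower in R5 vein and within 0.2 of WT on the log2 scale in fruit.

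On chromosome 7, Csa7G378520 (annotated as IAA16) precedes Csa7G378530. It fell from 79.0 and 80.5 RPM to 40.8 and 34.2 RPM in vein (log2 fold change -1.08, standard error 0.26, adjusted p = 0.0185). It was scarce in fruit, at 1.28 and 0.566 RPM in WT fruit and 0.653 and 0.598 RPM in R5 fruit, with a tissue difference of 5.87 in WT (adjusted p = 6.03e-05). Both neighbours on chromosome 7 were therefore higher in vein in WT, and whether their tissue differences differed from each other was not tested. On chromosome 2, Csa2G010920 (also annotated as IAA16) precedes Csa2G011420. It was at 22.4 and 29.4 RPM in WT vein and 20.0 and 9.69 RPM in R5 vein (log2 fold change -0.86, adjusted p = 0.147), which was not called, in contrast to the 4.55-fold fall of its neighbour. The difference between these 2 falls was not tested. The AUX/IAA genes are related in sequence, and how reads that map to several genes were counted is not given in the sources used here, so the split of reads between relatives is uncertain.

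The study's tables hold 6 other AUX/IAA genes. Csa3G877650 (IAA29) fell from 8.02 and 9.64 RPM in WT vein to 2.33 and 1.74 RPM in R5 vein (log2 fold change -1.88, standard error 0.17, adjusted p = 0.000681), and was at 59.7 and 62.3 RPM in WT fruit and 73.0 and 72.5 RPM in R5 fruit. On the RPM scale and after TMM scaling, it was the only gene of the 12 called higher in WT fruit than in WT vein (log2 difference -2.73, adjusted p = 0.000167), and its R5 effect differed between the tissues by -2.14 (adjusted p = 0.0104). Csa3G134550 and Csa2G170820, both annotated as auxin-induced protein 13, fell in vein, with log2 fold changes of -1.53 and -1.32 (adjusted p = 0.0104 and 0.00673), and were at -0.004 and 0.079 in fruit. Csa3G610800 (IAA11), Csa3G516530 (IAA19) and Csa5G610430 (IAA32) were at -0.83, -0.96 and -1.54 in vein and were not called. Csa5G610430 showed the widest spread in fruit, at 14.1 and 4.40 RPM in WT and 23.2 and 20.9 RPM in R5 (log2 fold change 1.41, adjusted p = 0.579).

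Over the 12 AUX/IAA genes, 8 were called lower in R5 vein and 0 higher, and all 12 had a negative estimate. The median log2 fold change was -1.31, against 0.20 over all genes tested, and after TMM scaling 11 were called lower with a median of -1.57. The count called lower was 4 without WT vein replicate 1 or 2 and 11 without R5 vein replicate 1, with all 12 estimates below 0 each time. The study's tables list genes it called in vein, so this direction is set by the choice of genes and is not independent evidence. In fruit 0 of the 12 were called, where only 0.422% of all genes tested were called higher and 0.0506% lower. Of the 12 estimates in fruit, 8 were higher and 4 lower, and the median was 0.22 against -0.01 over all genes. In WT, 5 were called higher in vein and 1 higher in fruit, against 7.45% and 22.7% of all genes tested. After TMM scaling these counts were 6 and 1, against 2017 and 2013 of 17778 genes. The median difference on the RPM scale was 0.74 against -0.51 over all genes. The WT vein libraries also entered the vein comparison that chose the list, so this contrast is not independent of the choice. The R5 effect was called different between the tissues in 6 of the 12, and in 8 after TMM scaling, against 11.4% of all genes. That test contains the vein libraries that chose the list, and without any one WT library limma gave 0 calls over all genes, with 3641 to 4079 at an unadjusted p under 0.05.

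**Figure D3:**
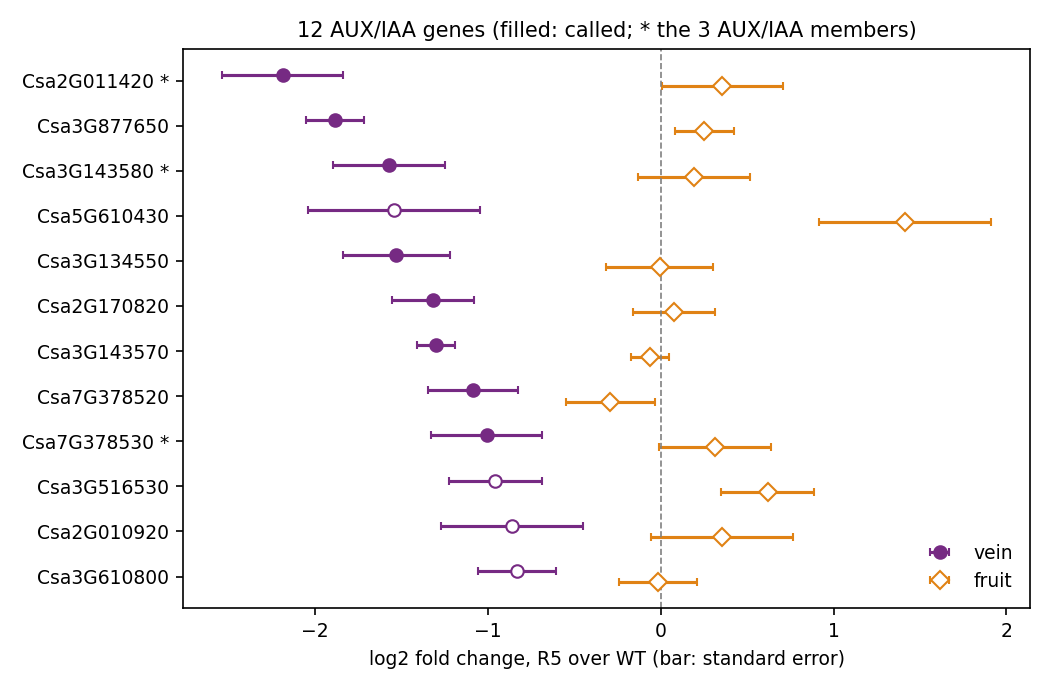
Log2 fold change of R5 over WT (x axis) in vein (circles) and in fruit (diamonds) for the 12 AUX/IAA genes (y axis), with standard errors as bars, filled where called and with the 3 AUX/IAA genes described first marked by an asterisk. All 12 vein estimates are below 0 and 8 are called, and in fruit 8 are above 0 and 0 are called.

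Other auxin genes of the same tables did not all move with the AUX/IAA genes in vein. All lists described from here on hold genes that the study called in vein, so their vein calls and directions are not independent evidence. Over all 17778 genes tested, 2494 were called higher and 913 lower in R5 vein, and 1817 and 1486 after TMM scaling. Of 4 GH3 genes, whose *Arabidopsis* relatives conjugate auxin to amino acids, 3 were called higher in R5 vein and 0 lower (2 higher after TMM scaling and 1 without WT vein replicate 1 or 2). Csa4G007100 had the largest estimate, from 8.62 and 7.66 RPM in WT vein to 69.1 and 43.8 RPM in R5 vein (log2 fold change 2.69, adjusted p = 0.00063), and Csa3G431430 the smallest, at 1.03 (adjusted p = 0.0481). The 16 SAUR genes, a family of small auxin-induced transcripts linked to cell expansion, were split, with 6 called higher and 8 lower (4 and 8 after TMM scaling), 2 and 2 without WT vein replicate 1, and 2 and 1 without WT vein replicate 2. Their extremes were Csa7G448680 at 2.01 (adjusted p = 0.00539) and Csa2G258100 at -1.88 (adjusted p = 0.00293).

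Of 4 auxin transport genes, 2 were called higher and 1 lower (1 and 1 without WT vein replicate 1 or 2). Csa2G074200, annotated as the ABC transporter P-glycoprotein 21, rose from 0.498 and 0.530 RPM to 20.1 and 9.17 RPM (log2 fold change 3.80, adjusted p = 0.00163). Csa7G010800, annotated as the influx carrier LAX2, fell from 23.3 and 29.9 RPM to 8.84 and 4.16 RPM (log2 fold change -2.03, adjusted p = 0.0039). All 4 transport genes were called higher in WT fruit than in WT vein, and 2 of them after TMM scaling, where 22.7% of all genes were called higher in fruit on the RPM scale and 2013 of 17778 after TMM scaling. Of 2 genes that modify auxin, Csa7G081680 (IAA carboxylmethyltransferase 1, which methylates auxin in *Arabidopsis*) fell by 1.59 (adjusted p = 0.0028 by limma). The other, Csa6G109750, was at -0.82, short of the 2-fold limit, and was not called with all 8 libraries on the RPM scale. It was called lower after TMM scaling.

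The 3 other auxin-responsive genes were called higher in R5 vein (2 after TMM scaling). The largest estimate was that of Csa7G041870, from 0.774 and 1.35 RPM in WT vein to 201 and 60.8 RPM in R5 vein (log2 fold change 6.18, adjusted p = 0.00294). Fruit held 8.74 and 3.05 RPM in WT and 83.3 and 18.2 RPM in R5 (2.79, adjusted p = 0.468 by limma). Both R5 libraries were thus above both WT libraries in each tissue, as for Csa1G071800. Over all genes tested this was so for 45.1% in vein and 23.2% in fruit, and the share for both tissues together was not counted. In fruit, 0 genes of these 5 lists were called, where only 0.422% of all genes tested were called higher and 0.0506% lower. At an unadjusted p under 0.05, limma found 1210 genes in fruit among the 17778.

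**Figure D4:**
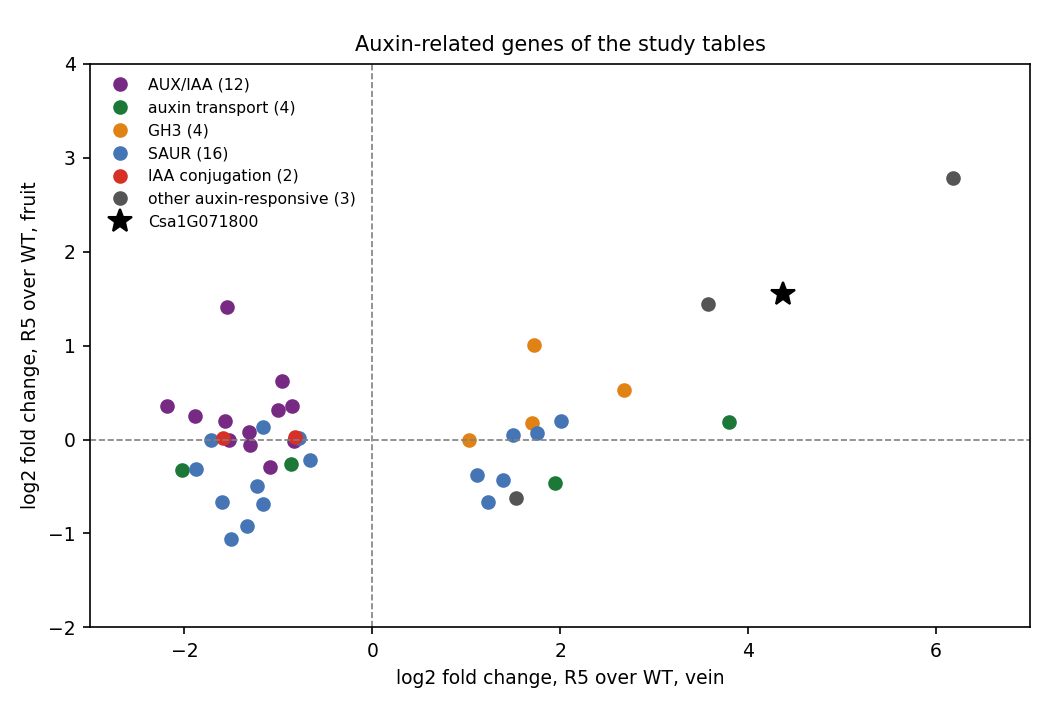
Log2 fold change of R5 over WT in vein (x axis) against that in fruit (y axis) for 41 auxin-related genes, coloured by list with the number of genes in brackets, and Csa1G071800 as a star. The gap near 0 on the x axis arises because the lists hold genes that the study called in vein. The AUX/IAA genes lie left of 0 between -0.29 and 1.41 on the fruit axis.

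Genes whose levels followed the 4 genes most closely over the 8 libraries were found by Pearson's r of log2(RPM + 0.5) among 14204 genes with at least 10 RPM in their highest group. The 8 libraries share groups and depth, so r is a description. Csa2G011420 was followed by Csa6G484600 (r = 0.98, rho = 0.88), Csa5G608290 (r = 0.97, rho = 0.98) and Csa6G079220 (r = 0.96, rho = 0.98). The last is annotated as a cytochrome P450, and went from 62.9 and 66.5 RPM in WT vein to 12.5 and 25.7 RPM in R5 vein, with 28.5 to 44.7 RPM in fruit. Csa3G143580 was followed by Csa2G010260, Csa2G285920 and Csa3G017070 (r = 0.98 each, rho = 0.79 to 0.86), and Csa7G378530 by Csa6G105170, Csa5G638350 and Csa2G379870 (r = 0.99 each, rho = 0.98 to 1).

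Csa1G071800 was followed by Csa4G621720 (a cytochrome P450), Csa3G099590 (a calcium-binding EF-hand protein) and Csa4G193250 (annotated as NAC domain protein 87), with r = 0.99 and rho = 0.92 for each. Csa4G621720 was at 4.42 and 4.92 RPM in WT vein and 123 and 89.5 RPM in R5 vein, and at 5.42 and 3.83 RPM in WT fruit and 18.8 and 15.6 RPM in R5 fruit. It was higher in R5 in each tissue, with the higher levels in vein, as was Csa1G071800. Among the 4 genes, Csa2G011420 and Csa3G143580 were the most alike (r = 0.93, rho = 0.79), and Csa7G378530 was less like either (r = 0.54 and 0.61). Csa1G071800 had an r of -0.68 with Csa2G011420, -0.62 with Csa3G143580 and 0.08 with Csa7G378530.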

How the data were processed

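Reads of 150 bp from directional libraries were mapped by the authors with TopHat to version 2 of the cucumber genome and counted per gene with HTSeq, with tool versions and strand setting not given in the sources used here. The deposited values are RPM, which the authors obtained from counts by scaling each library to 1 total. In each library 100% of values were whole multiples of 1 read (tolerance 0.05 reads), so reads could be recovered (18088985 to 22979345 per library).

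Of 17783 genes, 17778 reached 1 RPM in 2 or more libraries and were tested, all 4 genes included. limma 3.58.1 (R 4.3.3) was fitted to log2(RPM + 0.5) with trended empirical Bayes, 1 mean for each of the 4 groups and 4 residual degrees of freedom. A pseudocount understates changes of low genes. Tests were two-sided with Benjamini-Hochberg adjustment over all genes. Calls needed an adjusted p below 0.05 and a 2-fold change, and the tissue difference of the R5 effect only the former. The smallest p an exact permutation test allows with 2 libraries per group is 0.333. The labels call the libraries of a group biological replicates. The fit was also run on simulated data, with a common mean per gene in all groups except for genes changed in R5 vein. Unlike these libraries, they held no tissue difference and an equal spread setting in each group, so nothing is read from them.

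Members and lists were chosen with earlier results of these data known. Gene annotations and lists come from the study's tables of genes called in vein, whose fold changes and p-values were not used. Named genes were the 4 genes, the other 9 AUX/IAA genes, the genes with the highest and lowest vein estimate in each other auxin list and any called in fruit, and the 3 genes most like each of the 4. Beyond this rule, Csa6G109750 was named after its values were seen. Alternatives were other pseudocounts (0.1, 1), no filter, a filter on a mean of 5 RPM, TMM factors, DESeq2 1.42.0 and edgeR 4.0.16 (its quasi-likelihood test and its exact test) on recovered reads, a replicate block, a fit per tissue and leaving out each library (for list counts, chosen after seeing the data).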

Additional observations from a re-analysis of the deposited data

Results flagged for a closer look

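The R5 effect on Csa2G011420 and on Csa1G071800 differed between vein and fruit by the interaction test in limma. This test contains the vein libraries that chose the genes, and both calls were lost on leaving out any WT or R5 fruit library. The difference was -2.54 on the log2 scale for Csa2G011420 (adjusted p = 0.0301). This gene was lower in R5 in 2 of 2 vein libraries, as were 22.1% of all genes tested. The difference was 2.83 for Csa1G071800 (adjusted p = 0.0207). That gene was higher in R5 in 2 of 2 vein libraries, as were 45.1% of all genes tested. For Csa3G143580, both R5 libraries were below both WT libraries in vein, as in 22.1% of all genes tested. In fruit both were above both WT libraries, as in 23.2% of genes, and the log2 fold change was only 0.19. How many genes did both was not counted, and the interaction test did not pass (adjusted p = 0.0554).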

How the results depend on the processing

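With 2 libraries per group, several calls of the 4 genes rested on single libraries. The number of the 4 genes called in vein stayed at 3 or 4 under all alternatives but leaving out a library, where it was 2 to 4. In fruit it was 0, and 1 (Csa1G071800) with DESeq2 and with edgeR's exact test, and 0 to 1 on leaving out a library. For the vein minus fruit difference it was 2, and 1 with the stricter filter and with edgeR's quasi-likelihood test, 4 with DESeq2 and 0 to 4 on leaving out a library. For WT vein against WT fruit it was 3, and 1 to 3 on leaving out a library. For R5 vein against R5 fruit it was 2, 1 with the stricter filter and 1 to 3 on leaving out a library. The stricter filter removed Csa1G071800 from the test, which lowers its counts by construction. Direction turned for Csa2G011420 and Csa7G378530 in fruit without WT fruit replicate 2 (-0.006 and -0.128, with ranges on leaving out a library up to 0.72 and 0.757) and for Csa3G143580 in R5 vein against R5 fruit without R5 vein replicate 1 (0.114, with a range down to -0.977). The cause was not tested. Csa7G378530 in vein also missed a threshold with a pseudocount of 0.1 (adjusted p = 0.0556) or 1 (log2 fold change -0.99), and Csa3G143580 with a fit per tissue (adjusted p = 0.0762). On leaving out each library, the vein calls of the SAUR list were 2 to 6 higher and 1 to 8 lower, and those of the GH3 list 1 to 4 higher. The exact test gives no tissue difference.

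Same-numbered libraries deviated together with r between -0.11 and 0.22, so the numbers were not taken as pairs. With the replicate block, 3 of the 4 genes were called in vein (Csa7G378530 at an adjusted p of 0.0552), 0 in fruit, 2 for the difference, 3 for WT vein against WT fruit and 2 for R5. Over all genes the block gave 44 calls in fruit against 84, and 1071 for the difference against 2032. With the vein numbers crossed, a choice made after seeing the data, 3444 genes were called in vein, against 3398 with the block as numbered and 3407 without it. On recovered reads, edgeR's quasi-likelihood test called 3438 genes in vein. Over all genes, fruit calls were 65 with edgeR's quasi-likelihood test, 362 with DESeq2, 366 with edgeR's exact test and 218 with a fit per tissue. The vein calls were 3407 and fell to 2163 with a fit per tissue. The difference gave 3393 calls with DESeq2. Without WT vein replicate 1 or 2 it gave 0 calls over all genes, with 3641 and 4065 at an unadjusted p under 0.05 in limma.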
